A study of Mus musculus with 8 samples.

Results

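The C-type lectin receptors of cultured mouse alveolar macrophages are described here through 10 genes that were chosen by name: Clec7a, Clec4n, Clec4d, Clec4e, Clec5a, Clec4a2, Clec4a3, Clec4a1, Clec12a and Mrc1. All 10 are among the 15521 genes of the deposited expression table, and all 10 passed the filter on low counts that left 11621 genes for testing. Bulk RNA-seq was done on 8 libraries in 4 groups of 2. One group received Poly(I:C), a synthetic double-stranded RNA that imitates viral RNA, after MSDC. The second received Poly(I:C) after the vehicle DMSO, the third MSDC alone and the fourth DMSO alone. MSDC was given at 10 µM and Poly(I:C) at 5 µg/ml. Pretreatment with MSDC or DMSO lasted 2 h and the culture that followed 24 h according to the sample labels, whereas the series text speaks of overnight culture. The labels do not say which compound of the MSDC series was used. Every group came from lavage cells of mice that were kept by their adherence to plastic for 2 h and then cultured with GM-CSF, the growth factor of alveolar macrophages, at 10 ng/ml. No strain, age, sex or genotype is stated in the labels.

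C-type lectin receptors bind sugars and lipids on microbes and on damaged cells through a shared fold. Clec7a (Dectin-1) binds fungal beta-glucans and carries its own signalling motif. Clec4n (Dectin-2), Clec4d (MCL) and Clec4e (Mincle) bind fungal mannans or mycobacterial glycolipids and signal through the Fc receptor gamma chain, encoded by Fcer1g. Clec5a signals through the adaptor encoded by Tyrobp. These routes converge on the kinase Syk and on Card9, Bcl10 and Malt1, which lead to NF-kB. Clec4a2 (DCIR) and Clec12a (MICL) carry inhibitory motifs that recruit phosphatases, and Clec4a3 and Clec4a1 are close relatives of Clec4a2. Mrc1 (CD206) is an endocytic mannose receptor and a common marker of alveolar macrophages.

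By RefSeq coordinates on GRCm38.p6, 9 of the genes lie on chromosome 6 and Mrc1 lies at chr2:14229414-14332023. Clec4a1 at chr6:122921848-122934619, Clec4a3, Clec4a2, Clec4n at chr6:123229843-123247024, Clec4d and Clec4e at chr6:123281789-123289871 stand side by side within 368 kb that hold 9 protein-coding genes. The other 3 genes of that stretch were Clec4b1, with a mean of 17.9 TPM over the 8 libraries, and Clec4a4 and Clec4b2, which had at most 9 and 4 counts in any library. Clec12a at chr6:129349783-129365303 and Clec7a at chr6:129461591-129472785 form a second cluster, and Clec5a stands apart at chr6:40574898-40585805.

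The 250 bases before the transcription start are shown for 3 receptors: Clec7a and Clec4e, the pair whose Poly(I:C) response was smaller after MSDC, and Mrc1, the one receptor that rose with MSDC. They are RefSeq sequences on GRCm38.p6, written in the direction of the gene, from chr6:129472780-129473029 (minus strand), chr6:123289872-123290121 (minus strand) and chr2:14229164-14229413 (plus strand). Capitals mark matches to the motifs searched on both strands.
Clec7a: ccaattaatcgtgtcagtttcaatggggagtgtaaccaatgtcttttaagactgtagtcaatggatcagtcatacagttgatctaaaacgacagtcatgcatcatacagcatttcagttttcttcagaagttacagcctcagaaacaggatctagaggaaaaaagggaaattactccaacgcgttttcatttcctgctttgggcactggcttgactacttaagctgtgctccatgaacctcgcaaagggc
Clec4e: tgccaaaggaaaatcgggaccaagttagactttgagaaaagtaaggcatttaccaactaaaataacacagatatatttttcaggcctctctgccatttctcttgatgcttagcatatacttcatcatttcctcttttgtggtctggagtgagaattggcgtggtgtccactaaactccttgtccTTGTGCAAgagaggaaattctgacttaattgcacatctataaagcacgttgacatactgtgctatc
Mrc1: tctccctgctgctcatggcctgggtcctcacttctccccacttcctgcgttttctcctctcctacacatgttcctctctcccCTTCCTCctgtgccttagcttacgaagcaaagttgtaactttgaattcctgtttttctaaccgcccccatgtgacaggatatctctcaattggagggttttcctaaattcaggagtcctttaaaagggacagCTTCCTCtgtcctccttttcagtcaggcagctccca
The capitals in Clec4e are a match on the opposite strand to TTGCNNAA, a C/EBP motif, at bases -66 to -59, and those in Mrc1 are 2 matches, also on the opposite strand, to GAGGAAG, an ETS motif bound by the myeloid factor PU.1, at bases -168 to -162 and -36 to -30. Promoters were available for 9 of the 10 receptors. GAGGAAG was present in 5 of the 9 (Clec4a1, Clec4d, Clec5a, Clec12a and Mrc1), against 10.6% of the 32851 annotated mouse promoters of the same length. TTGCNNAA was present in Clec4e and Clec12a, against 9.56% of all promoters. The interferon response core GAAANNGAA and the nuclear receptor motif AGGTCA were found in 0 of the 9, against 7.13% and 14.0% of all promoters. These matches describe the letters of these windows and were not tested against the expression data.

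The libraries held 28762425 to 29493223 counts each, so that 3 counts, taken as the floor of detection, corresponded to 0.102 to 0.104 CPM, the unit of counts per library size. Log2 CPM values of the 2 libraries of a group correlated at 0.9962 or above, and those of libraries from different groups at 0.9837 or below. All 16 alveolar macrophage markers were present. They summed to 14950 to 15220 TPM with Poly(I:C) after vehicle and to 17310 to 18040 TPM in the other groups. With MSDC, 10 of these 16 were higher and 5 lower, both with and without Poly(I:C). Of all genes tested, 12.5% were higher and 13.6% lower with MSDC in stimulated cells, and 11.1% and 12.4% in unstimulated cells. Poly(I:C) after vehicle gave 3 markers higher and 5 lower, against 7.52% and 4.1% of all genes. Poly(I:C) after MSDC gave 3 higher and 1 lower, against 4.82% and 1.5%. Neutrophil markers summed to 27.8 to 48.5 TPM, most of it S100a8, and dendritic cell markers to 27.4 to 34.3 TPM, mostly Batf3. Epithelial markers summed to 20.8 to 35.7 TPM, mostly Cdh1. Values existed for 5 of 10 listed neutrophil, 5 of 6 monocyte, 6 of 7 dendritic cell and 6 of 8 lymphocyte markers. The number was 0 of 4 for eosinophils or mast cells and 1 of 3 for red cells. All sums cover only markers with values. Markers of lymphocytes summed to at most 0.19 TPM, those of endothelium and fibroblasts to at most 1.73 TPM, and the neutrophil markers Ngp and Camp had at most 3 counts in every library. Monocyte markers were low but moved with the treatments, and their values stand beside the results they move with. In bulk RNA, fewer cells of a type and less RNA per cell cannot be told apart. Whether the 2 libraries of each group stem from different mice or dishes is not stated, so p-values reflect only how far these samples scatter, which could be technical scatter.

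Clec7a was the most abundant receptor in every library. It stood at 1623 and 1661 TPM (a level scaled by transcript length and by the library) with Poly(I:C) after MSDC, at 3543 and 3444 TPM with Poly(I:C) after vehicle, at 1348 and 1369 TPM with MSDC and at 2400.3 and 2196 TPM with vehicle. The 4 groups did not overlap. For this and the other separations of libraries described below, the share over all genes was not counted. By TPM it ranked 22nd of all genes in both libraries given Poly(I:C) after vehicle, 40th and 45th with vehicle, 69th and 67th with Poly(I:C) after MSDC and 89th and 87th with MSDC.

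Among the receptors coupled to the Fc receptor gamma chain, Clec4n was the most abundant. It stood at 244 and 254 TPM with Poly(I:C) after MSDC, at 721 and 673 TPM with Poly(I:C) after vehicle, at 274 and 266 TPM with MSDC and at 724 and 646 TPM with vehicle. The 4 MSDC libraries lay far below the 4 vehicle libraries, and within each pretreatment the values with and without Poly(I:C) lay close together. Clec4d, its neighbour, stood at 40.8 and 34.3 TPM with Poly(I:C) after MSDC, at 77.1 and 72.1 TPM with Poly(I:C) after vehicle, at 42.3 and 39.1 TPM with MSDC and at 76.6 and 70.9 TPM with vehicle. Clec4e stood at 29.9 and 28.4 TPM with Poly(I:C) after MSDC, at 54.3 and 45.4 TPM with Poly(I:C) after vehicle, at 32.9 and 31.8 TPM with MSDC and at 38.5 and 31.9 TPM with vehicle. Clec4e was thus high in the 2 libraries given Poly(I:C) after vehicle, and the MSDC and vehicle libraries without Poly(I:C) overlapped. Clec5a, the receptor paired with the Tyrobp adaptor, stood at 15.6 and 15.1 TPM with Poly(I:C) after MSDC, at 24.9 and 20.8 TPM with Poly(I:C) after vehicle, at 20.0 and 18.4 TPM with MSDC and at 23.8 and 25.2 TPM with vehicle.

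The receptors with inhibitory motifs, and their relatives, were of intermediate level. Clec4a2 stood at 65.6 and 94.0 TPM with Poly(I:C) after MSDC, at 164 and 170.1 TPM with Poly(I:C) after vehicle, at 89.2 and 90.5 TPM with MSDC and at 162 and 148 TPM with vehicle. Clec12a stood at 86.4 and 84.2 TPM with Poly(I:C) after MSDC, at 145 and 130.4 TPM with Poly(I:C) after vehicle, at 63.1 and 67.7 TPM with MSDC and at 106 and 106 TPM with vehicle. Clec4a3 stood at 80.8 and 81.4 TPM with Poly(I:C) after MSDC, at 124 and 128 TPM with Poly(I:C) after vehicle, at 60.1 and 63.1 TPM with MSDC and at 96.9 and 91.9 TPM with vehicle. For Clec12a and Clec4a3, as for Clec7a, the 4 groups were fully separated and in the same order. Levels were highest with Poly(I:C) after vehicle, then vehicle, then Poly(I:C) after MSDC, and lowest with MSDC. Clec4a1 was near the limit of detection, at 0.40 to 1.16 TPM and 9 to 27 counts in the 8 libraries.

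Mrc1 ran against the other receptors. It stood at 507 and 537 TPM with Poly(I:C) after MSDC, at 402 and 382 TPM with Poly(I:C) after vehicle, at 533 and 526 TPM with MSDC and at 481 and 384 TPM with vehicle. All 4 MSDC libraries were above all 4 vehicle libraries. In both MSDC groups Mrc1 was therefore the receptor with the second highest TPM and Clec4n the third, while in both vehicle groups Clec4n was the second and Mrc1 the third. Of the neighbours in the order of mean TPM, only Clec4a3 and Clec4a2 with Poly(I:C) after MSDC had overlapping libraries.

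**Figure D1:**
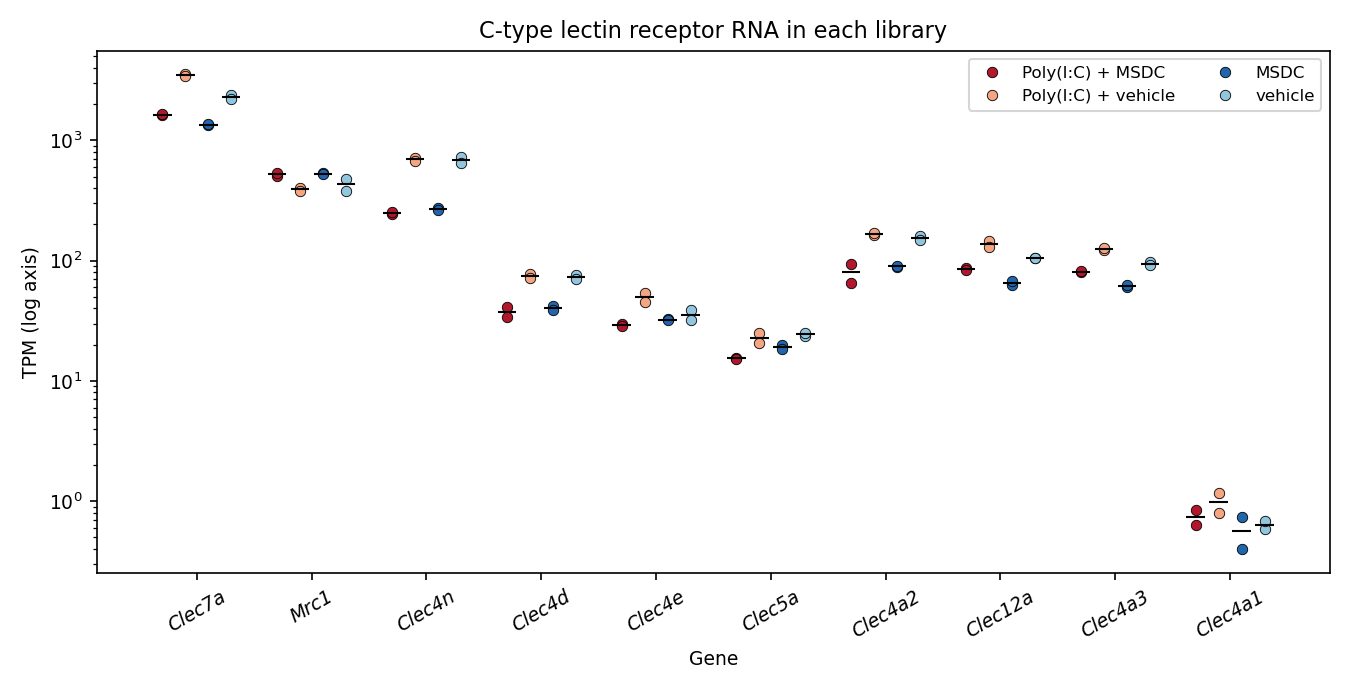
TPM on a log axis for the 10 receptors in each library; points are libraries, bars are means of 2, and the groups run from Poly(I:C) after MSDC on the left to vehicle on the right. The Clec4n points of the MSDC groups (244 to 274 TPM) sit well below those of the vehicle groups (646 to 724 TPM), and the Mrc1 points show the opposite order.

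Added together, the 10 receptors amounted to 2694 and 2790.1 TPM with Poly(I:C) after MSDC, 5257 and 5066 TPM with Poly(I:C) after vehicle, 2463 and 2472 TPM with MSDC and 4109 and 3700.2 TPM with vehicle. Clec7a made up 60.2% and 59.5% of that sum with Poly(I:C) after MSDC, 67.4% and 68.0% with Poly(I:C) after vehicle, 54.7% and 55.4% with MSDC and 58.4% and 59.4% with vehicle. The share of Mrc1 was 18.8% and 19.2% with Poly(I:C) after MSDC, 7.65% and 7.53% with Poly(I:C) after vehicle, 21.7% and 21.3% with MSDC and 11.7% and 10.4% with vehicle. Between the highest and the lowest groups the sum therefore moved mainly with Clec7a and Clec4n, and Mrc1 took a larger share in every MSDC library than in any vehicle library.

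**Figure D2:**
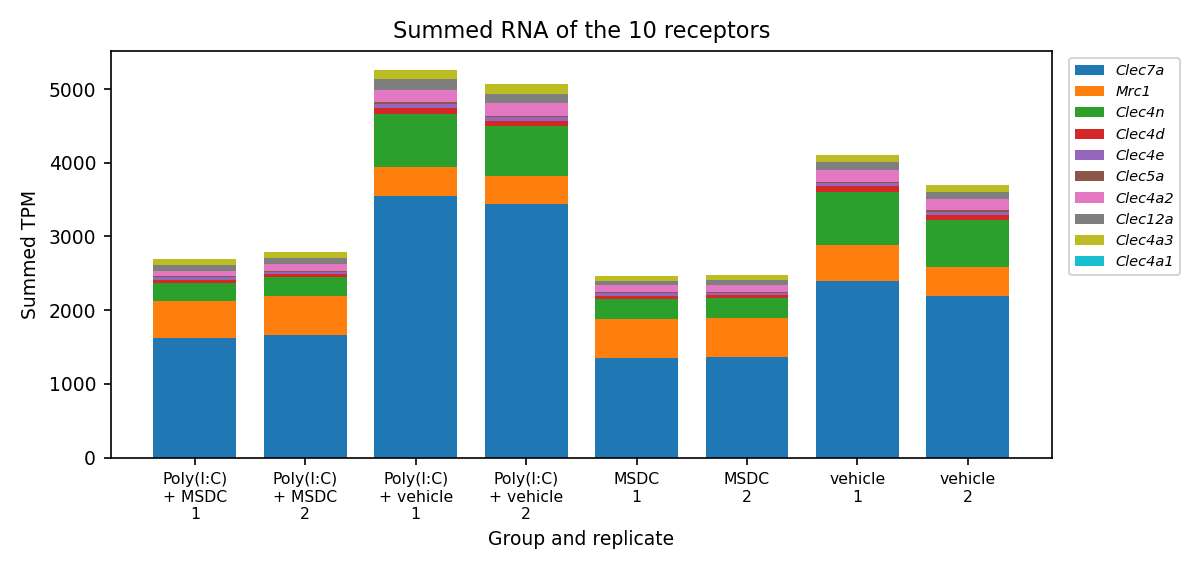
Summed TPM of the 10 receptors in each library, stacked by gene. The bars reach 5257 and 5066 TPM with Poly(I:C) after vehicle and 2463 and 2472 TPM with MSDC alone; Clec7a (blue) is the largest part of every bar.

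Without Poly(I:C), MSDC lowered most of these receptors and raised one. Clec4n fell to 0.399 times its level with vehicle, and Clec4d, Clec4a2, Clec7a, Clec12a, Clec4a3 and Clec5a fell to between 0.563 and 0.800 times, while Mrc1 rose 1.25-fold. With edgeR's quasi-likelihood test on counts and an adjusted p under 0.05 over all genes, 7 of the 10 receptors were lower and 1 was higher. Of all 11621 genes tested in this comparison, 23.5% were called, 12.4% as lower and 11.1% as higher. The median log2 fold change of the 10 receptors was -0.63, against -0.0015 for all genes tested. The receptors and the lists used below were chosen with earlier results of these data known. The contrasts with all genes, here and below, therefore describe them and do not test them as sets.

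The log2 fold change of Clec4n was -1.32 (SE 0.06, edgeR adjusted p = 5.15e-10), and its 95% interval ran from -1.46 to -1.19. Clec4d changed by -0.83 (SE 0.09, edgeR adjusted p = 3.86e-06) and Clec7a by -0.73 (SE 0.05, edgeR adjusted p = 3.4e-08) on the same scale. The inhibitory receptors Clec4a2 and Clec12a changed by -0.74 (SE 0.10, edgeR adjusted p = 5.35e-05) and -0.67 (SE 0.07, edgeR adjusted p = 3e-06), so both activating and inhibitory receptors were among those that fell. Clec4a3 changed by -0.59 (edgeR adjusted p = 9.08e-06) and Clec5a by -0.32 (SE 0.09, edgeR adjusted p = 0.0178). Mrc1 changed by +0.32 (SE 0.07, edgeR adjusted p = 0.00467), and by 0.19 without vehicle replicate 2 and 0.47 without vehicle replicate 1, where it was still called. Clec4e, at -0.09 with a 95% interval from -0.30 to 0.12 (edgeR adjusted p = 0.579), was not called, and Clec4a1, at -0.13, had an interval from -1.25 to 0.99. The Clec5a call was lost without vehicle replicate 2 (-0.26, edgeR adjusted p = 0.0712) and without MSDC replicate 2 (-0.29, edgeR adjusted p = 0.134). The same group of MSDC libraries had lower monocyte marker RNA, with summed levels of 0.48 to 0.74 TPM with MSDC and 2.34 to 2.54 TPM with vehicle, and both tested monocyte markers fell (Ccr2 by 2.11 and Vcan by 1.34 on the log2 scale). The epithelial marker Cdh1 also fell, by 0.32, as did the dendritic cell marker Zbtb46 (-1.29) and the endothelial marker Cdh5 (-1.74), while the neutrophil marker S100a8 rose by 0.60. Endothelial and fibroblast markers summed to 0.54 to 0.74 TPM with MSDC and 1.09 to 1.56 TPM with vehicle. The part of these cell types in the receptor values was not tested.

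In Poly(I:C)-treated cells, MSDC lowered 8 receptors and raised Mrc1. Clec4n was at 0.347 times, Clec7a at 0.460 times, Clec4a2 at 0.492 times and Clec4d at 0.492 times the level of cells given Poly(I:C) after vehicle, and Mrc1 was 1.30 times as high. Against these 8 lower and 1 higher of 10, 26.1% of all genes tested were called in this comparison, 13.6% as lower and 12.5% as higher. The median log2 fold change of the receptors was -0.77, against -0.0024 for all genes tested. This comparison shares no library with the one made without Poly(I:C). Both came from 1 fit over all libraries with a shared estimate of the spread, so they are not independent repeats.

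Clec4n again had the largest change of the 10, with a log2 fold change of -1.53 (SE 0.06, 95% interval -1.67 to -1.39, edgeR adjusted p = 8.97e-11). Clec7a changed by -1.12 (SE 0.05, edgeR adjusted p = 2.92e-10), Clec4d by -1.02 (edgeR adjusted p = 3.85e-07) and Clec4e by -0.81 (SE 0.10, edgeR adjusted p = 9.27e-06). All 3 receptors coupled to the Fc receptor gamma chain were thus lower with MSDC in stimulated cells. Clec4a2 changed by -1.02, Clec12a by -0.74, Clec4a3 by -0.67 and Clec5a by -0.61, with edgeR adjusted p between 8.06e-07 and 0.000132. Mrc1 changed by +0.38 (SE 0.08, edgeR adjusted p = 0.00118), and Clec4a1, at -0.45 (95% interval -1.46 to 0.57, edgeR adjusted p = 0.554), was not called. These 9 calls were made under all 17 alternative settings. Monocyte markers summed to 0.80 to 1.33 TPM with Poly(I:C) after MSDC and 3.18 to 3.56 TPM with Poly(I:C) after vehicle, and Ccr2 and Vcan fell by 1.79 and 1.21 on the log2 scale. The dendritic cell marker Zbtb46 (-1.26) and the endothelial marker Cdh5 (-2.17) also fell, with endothelial and fibroblast markers summing to 0.62 to 0.79 TPM with Poly(I:C) after MSDC and 1.71 to 1.73 TPM with Poly(I:C) after vehicle; their part in the receptor values was not tested.

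Poly(I:C) after vehicle raised 4 of the receptors. Clec7a was 1.59 times, Clec4e 1.48 times, Clec4a3 1.396 times and Clec12a 1.36 times as high as with vehicle alone. These 4 higher and 0 lower of 10 stand against 11.6% of all genes called in this comparison, 7.52% as higher and 4.1% as lower; at an unadjusted p under 0.05, and with DESeq2 and limma, the number lower was also 0. The median log2 fold change of the receptors was 0.29.

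The log2 fold change of Clec7a was 0.67 (SE 0.05, 95% interval 0.55 to 0.78, edgeR adjusted p = 1.48e-07), that of Clec4e 0.57 (SE 0.10, edgeR adjusted p = 0.000714), that of Clec4a3 0.48 (edgeR adjusted p = 0.000124) and that of Clec12a 0.44 (edgeR adjusted p = 0.000388). Clec4n, Clec4d and Clec4a2, of the same cluster as Clec4e and Clec4a3, were not called. Clec4n stood at 0.10 (95% interval -0.04 to 0.23), Clec4d at 0.08 (95% interval -0.10 to 0.27) and Clec4a2 at 0.14 (95% interval -0.08 to 0.35). Clec5a was at -0.04 and Mrc1 at -0.08, with edgeR adjusted p of 0.829 and 0.574, and Clec4a1 was at 0.69 with an interval from -0.35 to 1.73. Without vehicle replicate 2, Mrc1 was called lower at -0.22 (edgeR adjusted p = 0.0142). The monocyte marker Vcan was higher with Poly(I:C), by 1.36 on the log2 scale, and Ccr2 was not called at 0.12. The epithelial marker Cdh1 was lower, by 0.53 (edgeR adjusted p = 0.000152). The part of these cell types in the receptor values was not tested.

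Poly(I:C) after MSDC raised 3 receptors relative to MSDC alone: Clec4a3 1.32-fold, Clec12a 1.30-fold and Clec7a 1.21-fold. Of all genes tested, 6.32% were called in this comparison, 4.82% as higher and 1.5% as lower. The log2 fold changes were 0.40 (SE 0.07, edgeR adjusted p = 0.00141), 0.38 (SE 0.07, edgeR adjusted p = 0.00332) and 0.28 (SE 0.05, edgeR adjusted p = 0.00296). Clec4e, at -0.15 (95% interval -0.36 to 0.06, edgeR adjusted p = 0.509), was not called. The number called lower was 0 by edgeR and by limma and 1 by DESeq2 and at an unadjusted p under 0.05; that gene was Clec5a, at -0.33 with an edgeR adjusted p of 0.0553. The 3 calls were lost without MSDC replicate 1, at 0.35 for Clec4a3 (edgeR adjusted p = 0.0537), 0.35 for Clec12a (edgeR adjusted p = 0.0677) and 0.25 for Clec7a (edgeR adjusted p = 0.0907), and Clec12a was also lost without the first library of Poly(I:C) after MSDC (0.33, edgeR adjusted p = 0.0636). Vcan was higher here too, by 1.49 on the log2 scale. Monocyte markers summed to 0.80 to 1.33 TPM with Poly(I:C) after MSDC and 0.48 to 0.74 TPM with MSDC. Cdh1 was again lower, by 0.34 (edgeR adjusted p = 0.0135). The part of these cell types in the receptor values was not tested.

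**Figure D3:**
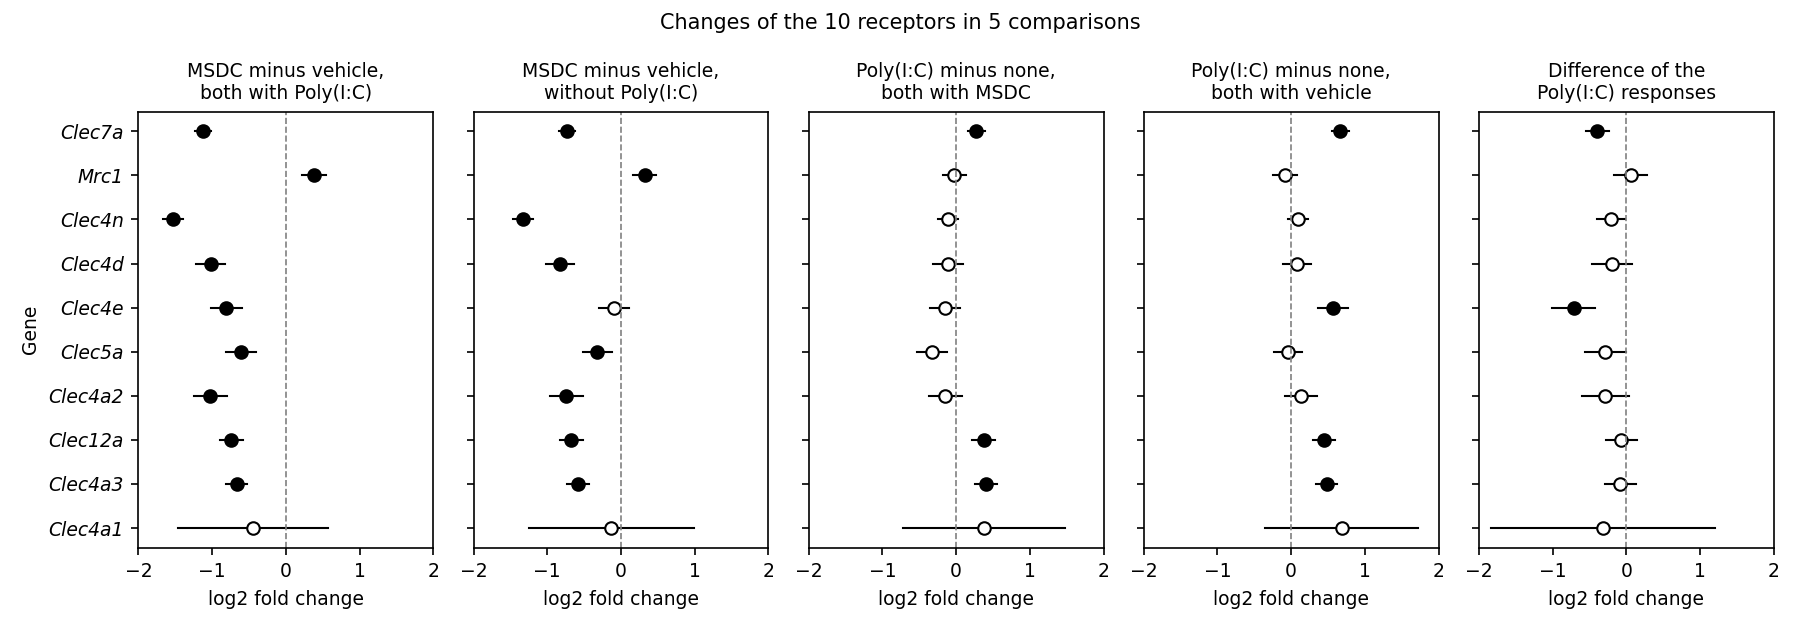
Log2 fold changes of the 10 receptors (points) with 95% intervals (lines) in the 5 comparisons; filled points have an edgeR adjusted p under 0.05. In the 2 panels of MSDC minus vehicle most filled points lie left of 0 and Mrc1 lies right of it; in the Poly(I:C) panels the filled points lie right of 0.

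Whether MSDC changed the response to Poly(I:C) was tested as the difference of the 2 responses, the log2 fold change after MSDC minus that after vehicle. Clec4e and Clec7a were called, and both responded less after MSDC; only 26 genes, 0.224% of those tested, were called in this comparison, 0.103% as lower and 0.12% as higher. For Clec4e the difference was -0.72 (SE 0.14, 95% interval -1.01 to -0.42, edgeR adjusted p = 0.0461), from responses of -0.15 after MSDC and 0.57 after vehicle. For Clec7a it was -0.39 (SE 0.07, 95% interval -0.55 to -0.23, edgeR adjusted p = 0.0434), from responses of 0.28 after MSDC and 0.67 after vehicle, so that Clec7a still rose after MSDC. Both adjusted p-values stood close to the threshold. The Clec4e call was lost under 8 of 16 alternatives, with adjusted p from 1.79e-06 to 0.345, and the Clec7a call under 10 of 16, with adjusted p from 0.000276 to 0.365, while the differences ran from -0.84 to -0.57 for Clec4e and from -0.43 to -0.33 for Clec7a. Without each library in turn, the Clec4e call was lost without either MSDC library (adjusted p 0.191 and 0.185), without the first library of Poly(I:C) after vehicle (0.260) and without either library of Poly(I:C) after MSDC (0.172 and 0.345), and the Clec7a call without any one library other than the 2 vehicle libraries (adjusted p 0.141 to 0.359).

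None of the other 8 receptors was called for this difference by edgeR. Clec5a was at -0.28 (95% interval -0.56 to -0.0031) and Clec4n at -0.20 (95% interval -0.40 to -0.013); both had unadjusted p under 0.05, which makes 4 of 10 at that level, all lower, and their adjusted p-values were 0.760 and 0.729. Clec4a2 stood at -0.28, Clec4d at -0.19, Clec4a3 at -0.08, Clec12a at -0.07 and Mrc1 at 0.06. For Clec12a and Clec4a3 the 95% intervals, -0.28 to 0.15 and -0.29 to 0.13, leave room for a difference in either direction. The number called higher was 0 by edgeR, by DESeq2, by limma and at an unadjusted p under 0.05.

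**Figure D4:**
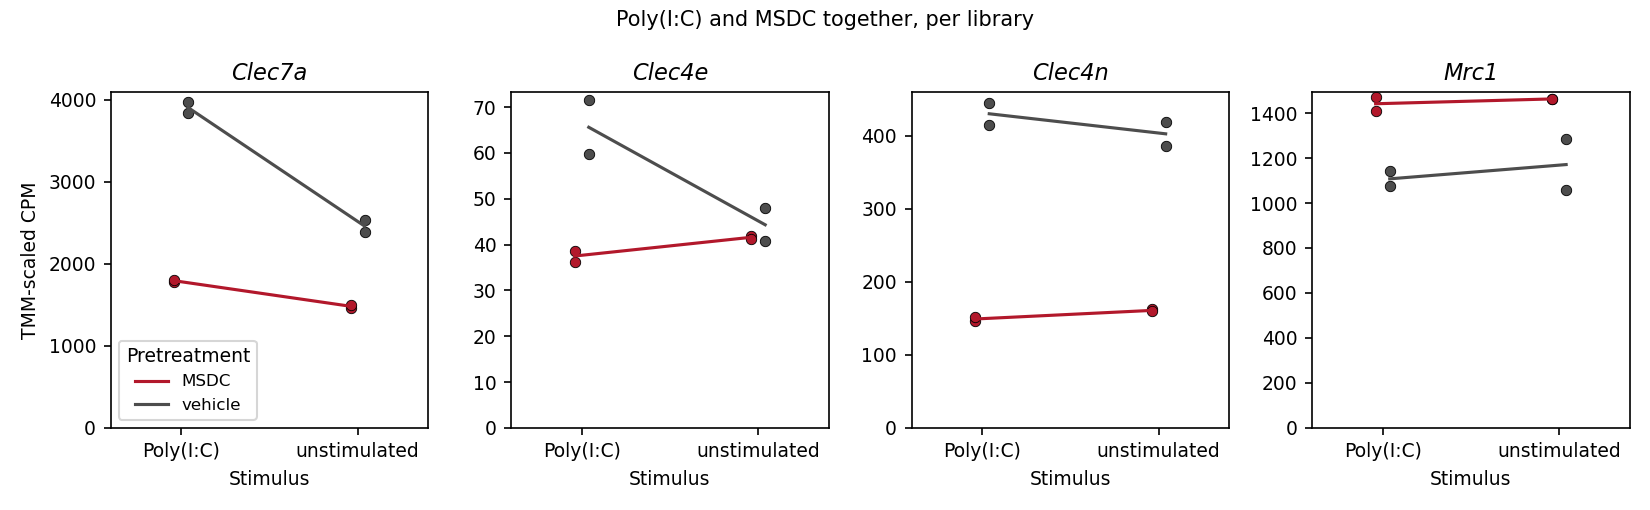
TMM-scaled CPM of 4 receptors in each library, with Poly(I:C) on the left and no stimulus on the right; red is MSDC, grey is vehicle, points are libraries and lines join group means. The grey lines of Clec7a and Clec4e are steeper than the red ones, the Clec4n lines are nearly flat and far apart, and the red line of Mrc1 lies above the grey one.

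The adaptors and first kinases of these receptors were called in both directions with MSDC. Of the 8 genes of this list, 5 were lower and 1 was higher with MSDC in Poly(I:C)-treated cells, and 4 were lower and 1 higher with MSDC in unstimulated cells; their median log2 fold changes were -0.21 and -0.20. Of all genes tested, 13.6% were lower and 12.5% higher with MSDC in stimulated cells, and 12.4% lower and 11.1% higher in unstimulated cells. Leaving out the first library of Poly(I:C) after vehicle gave 3 lower in stimulated cells, and leaving out any library given Poly(I:C) gave 0 higher there. Fcer1g, the shared gamma chain, stood at 3328 and 2821 TPM with Poly(I:C) after MSDC, 4628 and 4818 TPM with Poly(I:C) after vehicle, 3051 and 3197 TPM with MSDC and 4639 and 3947 TPM with vehicle. It fell with MSDC by 0.65 in stimulated cells (edgeR adjusted p = 7.8e-06) and by 0.43 in unstimulated cells (edgeR adjusted p = 0.000527) on the log2 scale. Every MSDC library lay below every vehicle library, as for Clec4n, Clec4d, Clec7a, Clec4a2, Clec12a, Clec4a3 and Clec5a, but not for Clec4e. The share of all genes with this pattern was not counted.

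Tyrobp, the partner of Clec5a, fell by 0.25 in stimulated cells (edgeR adjusted p = 0.00498) and was at -0.15 in unstimulated cells (edgeR adjusted p = 0.0876), where it was not called. Hcst, a related adaptor, was not called in any comparison and stood at 6.78 to 14.4 TPM. Of the Src family kinases that phosphorylate the adaptors, Fgr fell by 0.91 and 0.62 in stimulated and unstimulated cells (edgeR adjusted p = 1.34e-06 and 7.91e-05), and Src fell by 1.96 and 1.58 from a low level (1.12 and 0.79 TPM with Poly(I:C) after MSDC and 3.95 and 3.41 TPM with Poly(I:C) after vehicle). Lyn was lower with MSDC in unstimulated cells (-0.25, edgeR adjusted p = 0.00676) and not called in stimulated cells (-0.14, edgeR adjusted p = 0.122). Src rose with Poly(I:C) after vehicle by 0.83 (edgeR adjusted p = 0.00759), and Fgr fell with Poly(I:C) after MSDC by 0.34 (edgeR adjusted p = 0.0363). The Fgr call was lost under 5 of 17 alternatives, and without the second library of Poly(I:C) after MSDC its log2 fold change was -0.19, against -0.52 without the first. Syk, the kinase at which the routes meet, was higher with MSDC, by 0.19 in stimulated and 0.18 in unstimulated cells (edgeR adjusted p = 0.0209 and 0.0356). The Syk call in unstimulated cells was lost under 11 of 17 alternatives and that in stimulated cells under 4 of 17.

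Below Syk, 17 of the 18 listed genes were tested, and 6 were lower and 1 higher with MSDC in each state, with median log2 fold changes of -0.16 in stimulated and -0.12 in unstimulated cells. The share of all genes called lower was 13.6% in stimulated and 12.4% in unstimulated cells. Leaving out 1 library at a time gave 3 to 8 of the list lower in stimulated cells, with 3 without the second library of Poly(I:C) after vehicle. Card9, which joins the receptors to NF-kB, was not called (0.08 in stimulated and -0.12 in unstimulated cells, edgeR adjusted p = 0.581 and 0.389). Its partner Malt1 stood at 30.8 and 29.0 TPM with Poly(I:C) after MSDC, 51.0 and 51.9 TPM with Poly(I:C) after vehicle, 33.6 and 29.2 TPM with MSDC and 54.6 and 47.1 TPM with vehicle. It fell by 0.81 in stimulated and by 0.69 in unstimulated cells (edgeR adjusted p = 7.82e-07 and 5.12e-06). Bcl10, the third partner, fell in stimulated cells by 0.36 (edgeR adjusted p = 0.00955) and was not called in unstimulated cells (-0.04). Prkcd, the kinase that phosphorylates Card9, fell by 0.68 and 0.70 in stimulated and unstimulated cells (edgeR adjusted p = 2.13e-07 and 1.83e-07). Egr2, a transcription factor induced through calcium signalling of Dectin-1 in mouse macrophages, fell by 0.98 and 0.70 (edgeR adjusted p = 1.01e-08 and 5.07e-07). Vav3, a guanine nucleotide exchange factor, was the gene that rose with MSDC in stimulated cells (0.63, edgeR adjusted p = 0.0013). Nfkb1, an NF-kB subunit, was lower with MSDC in both states, by 0.18 in stimulated cells (edgeR adjusted p = 0.0477, a call lost under 10 of 17 alternatives) and by 0.28 in unstimulated cells (edgeR adjusted p = 0.00432). Rela, another NF-kB subunit, was the gene of the list called higher with MSDC in unstimulated cells (0.24, edgeR adjusted p = 0.026), and it was not called in stimulated cells (0.04). Under 5 of 17 alternatives the list had 0 genes higher with MSDC in unstimulated cells. With Poly(I:C), the list gave 0 higher and 1 lower after vehicle by edgeR, with 2 higher and 1 lower at an unadjusted p under 0.05 and 0 in both directions by DESeq2 and limma. After MSDC it gave 0 in both directions by edgeR, DESeq2 and limma, with 2 higher and 0 lower at an unadjusted p under 0.05.

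The inhibitory arm held 11 genes: phosphatases and ligases that damp these signals, and other receptors with inhibitory motifs. With MSDC 5 of the 11 were lower and 0 higher in stimulated cells by edgeR. The number higher there was also 0 by DESeq2, by limma and at an unadjusted p under 0.05. In unstimulated cells 3 were lower and 1 higher, and 6 were lower with scaling by library totals. Among all tested genes, 13.6% were lower and 12.5% higher with MSDC in stimulated cells, and 12.4% lower and 11.1% higher in unstimulated cells. The median log2 fold changes of the list were -0.26 and -0.17. The receptor Pilra stood at 57.2 and 49.7 TPM with Poly(I:C) after MSDC, 127 and 127 TPM with Poly(I:C) after vehicle, 59.9 and 58.2 TPM with MSDC and 128 and 128 TPM with vehicle, and it fell by 1.28 and 1.09 in stimulated and unstimulated cells (edgeR adjusted p = 2.51e-09 and 1.55e-08). Lilrb4a, another inhibitory receptor, fell by 0.88 and 0.65 (edgeR adjusted p = 1.19e-08 and 4.38e-07), and the lipid phosphatase Inpp5d (SHIP1) by 0.41 and 0.42 (edgeR adjusted p = 9.79e-05 and 7.78e-05). Ptpn6 (SHP-1), which the inhibitory motifs recruit, rose with Poly(I:C) after vehicle by 0.36 (edgeR adjusted p = 0.0022) and fell with MSDC in stimulated cells by 0.36 (edgeR adjusted p = 0.00103). Cd300lf, an inhibitory receptor for lipids, rose with Poly(I:C) after vehicle by 0.47 (edgeR adjusted p = 0.000109) and fell with MSDC in stimulated cells by 0.35 (edgeR adjusted p = 0.000838). For Ptpn6 and Cd300lf, both changes share the libraries given Poly(I:C) after vehicle. With MSDC in unstimulated cells neither was called (-0.17 for Ptpn6 and -0.12 for Cd300lf, edgeR adjusted p = 0.107 and 0.224). The ubiquitin ligase Cblb was the gene called higher with MSDC in unstimulated cells (0.28, edgeR adjusted p = 0.0373), a call lost under 12 of 17 alternatives. Pilra, Lilrb4a and Inpp5d were thus called with MSDC in both states and, like Clec4n, not with Poly(I:C). For the difference of the Poly(I:C) responses edgeR called 0 genes of the adaptor, signalling and inhibitory lists, as did DESeq2 and limma, while 5 genes, all lower, had an unadjusted p under 0.05.

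**Figure D5:**
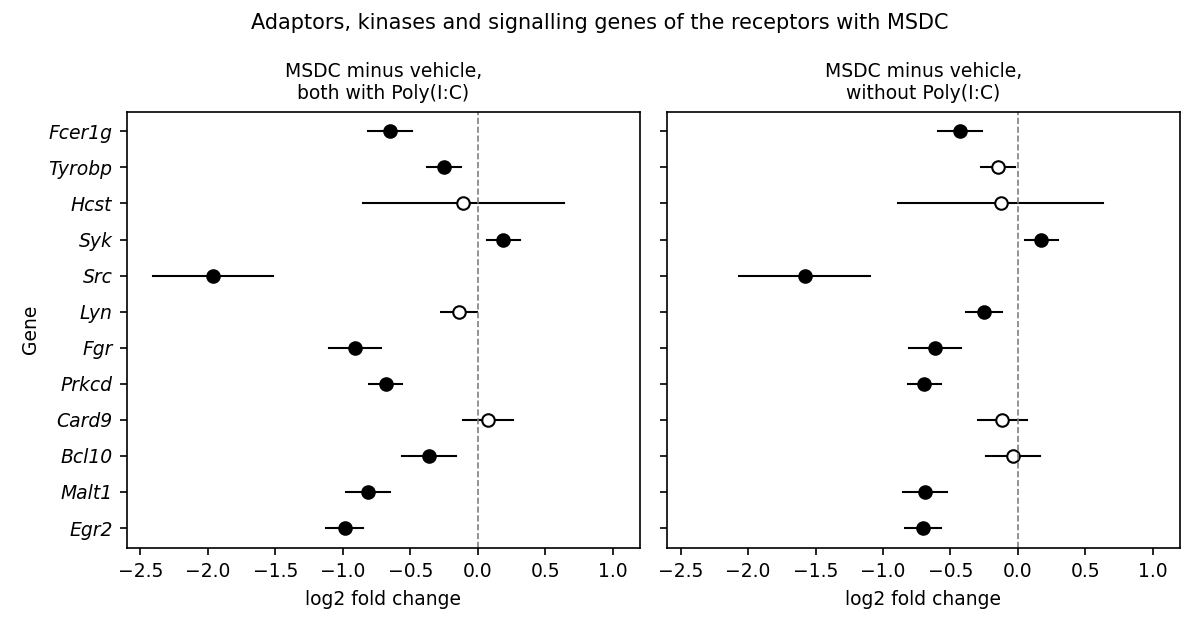
Log2 fold changes with MSDC (points) and 95% intervals (lines) for adaptors, kinases and signalling genes, with Poly(I:C) on the left and without on the right; filled points have an edgeR adjusted p under 0.05. Src, Fgr, Fcer1g, Prkcd, Malt1 and Egr2 are filled and left of 0 in both panels, Syk is filled and right of 0, and Card9 is open in both.

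Outside the 10 receptors, 47 other genes with a C-type lectin domain were listed, 35 were in the table and 16 passed the filter on low counts, so the counts below are over those 16 only. With MSDC, 4 were higher and 5 lower in stimulated cells and 5 higher and 8 lower in unstimulated cells. Their median log2 fold changes were -0.15 and -0.38, against -0.0024 and -0.0015 for all genes tested. Among all tested genes, 12.5% were higher and 13.6% lower in stimulated cells, and 11.1% higher and 12.4% lower in unstimulated cells. The 8 lower in unstimulated cells became 3 without MSDC replicate 1 and 5 without vehicle replicate 2. Clec1b (CLEC-2), a receptor for podoplanin, stood at 48.2 and 46.9 TPM with Poly(I:C) after MSDC, 87.7 and 95.5 TPM with Poly(I:C) after vehicle, 44.3 and 45.9 TPM with MSDC and 79.1 and 78.8 TPM with vehicle. It fell with MSDC by 0.98 and 0.78 (edgeR adjusted p = 9.96e-08 and 1.61e-06). Olr1 (LOX-1), a receptor for oxidised LDL, went the other way: it stood at 397 and 378 TPM with Poly(I:C) after MSDC, 230.0 and 248 TPM with Poly(I:C) after vehicle, 412 and 377 TPM with MSDC and 283 and 237 TPM with vehicle. It rose by 0.66 and 0.64 (edgeR adjusted p = 4.75e-06 and 6.15e-06), and thrombomodulin (Thbd) rose by 0.79 and 0.82 (edgeR adjusted p = 3.52e-06 and 2.64e-06). Olr1 and Thbd, like Mrc1, were not called with Poly(I:C), where their log2 fold changes lay between -0.04 and 0.13.

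Cd69, an early activation marker known from lymphocytes, was raised by Poly(I:C) and lowered by MSDC. It stood at 6.58 and 7.78 TPM with Poly(I:C) after MSDC, 14.4 and 13.8 TPM with Poly(I:C) after vehicle, 0.81 and 1.07 TPM with MSDC and 2.98 and 2.24 TPM with vehicle. It rose with Poly(I:C) by 2.93 after MSDC and by 2.49 after vehicle (edgeR adjusted p = 1.79e-07 and 7.04e-08), and fell with MSDC by 1.00 and 1.44 in stimulated and unstimulated cells (edgeR adjusted p = 0.000201 and 0.000636). The scavenger collectin Colec12 rose with MSDC in unstimulated cells by 0.46 (edgeR adjusted p = 9.48e-05) and fell with Poly(I:C) after MSDC by 0.41 (edgeR adjusted p = 0.000847). In all, Poly(I:C) gave 3 higher and 2 lower of the 16 after MSDC and 4 higher and 2 lower after vehicle; the 4 became 2 without the second library of Poly(I:C) after vehicle. Across all genes tested, Poly(I:C) gave 4.82% higher and 1.5% lower after MSDC, and 7.52% higher and 4.1% lower after vehicle. Values existed for 6 of the 8 listed lymphocyte markers, among them Cd3d, Cd3e and Cd79a, and summed to at most 0.19 TPM in these libraries. The listed NK cell marker Ncr1 had no values. Klrb1b, known from NK cells, was low and fell with MSDC by 1.70 and 0.98 (edgeR adjusted p = 7.84e-05 and 0.0054). The part of lymphocytes or NK cells in the Cd69 and Klrb1b values was not tested.

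Some receptors share sequence or have transcript forms of different length, which touches how their reads were assigned. Of the 50-base stretches of Clec4a2 transcripts, 6.83% occur in transcripts of other genes, most of them in Clec4a4 (3.85%), against 0.686% for Clec4n, 0.457% for Clec12a and 0% for the other 7 receptors. Counts of Clec4a2 were not whole numbers in 4 of the 8 libraries. Between the library with the longest and that with the shortest, the transcript length implied by count and FPKM differed by 10.6% of the shortest for Clec4a2. The same figure was 6.15% for Clec12a, and 0.139% to 1.52% for the other receptors with at least 500 counts per library. Of 6437 genes with that many counts, 48.0% differed by more than 1%. For Clec4a2 and Clec12a, TPM levels therefore carry this added uncertainty. Clec4a2 stood at 65.6 TPM in the first and 94.0 TPM in the second library with Poly(I:C) after MSDC. This was the widest relative spread among the receptors above the floor other than Clec4a1. The same libraries stood at 42.4 and 56.6 in TMM-scaled CPM, so the spread was also present in the counts that were tested.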

How the data were processed

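RNA of cultured mouse alveolar macrophages was measured in 8 libraries, 2 in each of 4 groups taken from the treatment labels. Per the file headers, the authors deposited an estimated count, an FPKM and a TPM value for each of 15521 genes, of which 575 had no count. The authors' estimated counts were not whole for 5.953% to 7.19% of values in a library (tolerance 1e-06) and were rounded here. No source used here says which tool made which column. Per the submitters' processing notes, TopHat2 2.1.1, Bowtie2 2.3.4, Cuffdiff and the builds GRCm38 and mm10 were used. The authors' deposited TPM values served for levels, and the deposited FPKM values only for implied transcript lengths. Of the gene IDs, 15419 (99.34%) matched RefSeq on GRCm38.p6. Dates stood in place of 23 gene symbols and were replaced through the gene ID.

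Counts were tested with edgeR 4.0.16 in R 4.3.3 (filterByExpr, TMM scaling, quasi-likelihood F test, 4 groups in 1 fit with 4 residual degrees of freedom), two-sided, with Benjamini-Hochberg adjustment over all 11621 genes tested and a threshold of 0.05. The common dispersion was 0.00383. Standard errors were derived from the log2 fold change and its F statistic. The 95% intervals used a t distribution on the 4 residual plus 10.84 prior degrees of freedom, the latter borrowed across genes. Alternatives were RLE factors, library totals, no filter, unrounded counts, DESeq2 1.42.0, limma 3.58.1 on log2(TPM + 1) and log2(TPM + 0.1), a replicate block, the 2 compared groups alone, and each library left out. All 10 receptors are named throughout; the rule named all adaptors and kinases, and of the other context lists up to 6 tested genes with the smallest p in any comparison. Some genes that the rule takes are not reported here. Bcl10, Card9 and Rela were named outside that rule, after their values were seen. Receptors and lists were chosen with earlier results of these data known. Floors of 3 counts and intervals cover counting and sample spread only. Comparisons of Poly(I:C) after vehicle and of MSDC without Poly(I:C) share the vehicle libraries; those of Poly(I:C) after MSDC and of MSDC without Poly(I:C) share the MSDC libraries; and MSDC in stimulated cells shares libraries with both Poly(I:C) comparisons.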

Additional observations from a re-analysis of the deposited data

Results flagged for a closer look

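Clec4e and Clec7a responded differently to Poly(I:C) after MSDC and after vehicle by the test of the difference itself. For Clec4e the difference of the log2 responses was -0.72, from -0.15 after MSDC and 0.57 after vehicle (edgeR adjusted p = 0.0461). For Clec7a it was -0.39, from 0.28 after MSDC and 0.67 after vehicle (edgeR adjusted p = 0.0434). The Clec4e call was lost under 8 of 16 alternatives and the Clec7a call under 10 of 16, the replicate block being one that ended the Clec7a call (edgeR adjusted p = 0.0771).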

How the results depend on the processing

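With 2 libraries a group, effects near the threshold depend on single libraries. The receptors called with MSDC in stimulated cells (8 lower, 1 higher) and the 4 called higher with Poly(I:C) after vehicle had the same counts under all 17 alternatives, and so had the 1 called higher with MSDC in unstimulated cells. Over the 10 receptors, 780 of 830 alternative values kept direction and side of the threshold, 24 lost it, 10 passed it and 16 changed sign; of 901 values for called genes of the other lists, 815 kept it and 86 lost it. The causes were not tested.

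Leaving out 1 library at a time gave 6 to 7 receptors lower with MSDC in unstimulated cells, 0 to 1 lower with Poly(I:C) after vehicle, 0 to 3 higher and 0 to 1 lower with Poly(I:C) after MSDC, and 0 to 2 lower for the difference of the responses. With Poly(I:C) after MSDC, 1 receptor (Clec5a) was lower with RLE factors, library totals, no filter, DESeq2 and the 2 compared groups alone, against 0 in the fit reported. For the difference of the responses, 0 receptors were lower with library totals and with limma on either TPM scale, against 2. Same-numbered libraries did not deviate together (correlations from -0.0304 to 0.0721 over 6 pairs of groups), so the numbers were not taken to pair the samples; with the replicate block 1 receptor, Clec4e, was lower for that difference, and Clec7a had an edgeR adjusted p of 0.0771.

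The sign changed only for effects that were not called. Leaving out 1 library at a time moved Clec4a1 between -0.0074 and 0.88 with Poly(I:C) after MSDC (sign changed at -0.0074), between -0.66 and 0.23 with MSDC in unstimulated cells (at 0.0038 and 0.23) and between -0.68 and 0.21 for the difference of the responses (at 0.0032 and 0.21). With Poly(I:C) after MSDC it moved Clec4a2 between -0.37 and 0.050, Clec4d between -0.25 and 0.011 and Mrc1 between -0.057 and 0.0092. With Poly(I:C) after vehicle it moved Clec5a between -0.20 and 0.064 (sign changed at 0.021 and 0.064) and Mrc1 between -0.22 and 0.067. Clec4e lay between -0.20 and 0.029 with MSDC in unstimulated cells, and for the difference of the responses Mrc1 lay between -0.089 and 0.19 and Clec12a between -0.12 and 0.0085, with 0.0033 and 0.0051 for Clec12a by limma on the 2 TPM scales.

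Over all genes, the calls reported and their range over the alternatives were 477 (243 to 867) lower with Poly(I:C) after vehicle, 174 (51 to 415) lower and 560 (365 to 769) higher with Poly(I:C) after MSDC, 1294 (819 to 1431) higher with MSDC in unstimulated cells, and 14 (3 to 64) higher and 12 (2 to 52) lower for the difference of the responses. With Poly(I:C) after vehicle, 64.7% of calls were higher, against 45.7% with library totals and 46.7% with limma on log2(TPM + 1).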
